A study of Mus musculus with 8 samples.

Results

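The deposited table of epiblast-like cells (EpiLCs) names each of its 8 columns by genotype, line number and a suffix, b1 or b2, and the 4 libraries that carry b2 were compared with the 4 that carry b1 across all genes. All 8 libraries of the series entered the comparison. EpiLCs are cultured counterparts of the epiblast just after implantation, made here from male mouse embryonic stem cells (ESCs) of (B6 × 129S6)F1 background carrying the Tet1 tm1Koh allele, by 2 days on fibronectin in N2B27 medium with 1% knockout serum replacement and 12 ng/ml bFGF and no added Activin A. Suffix b1 was carried by the Tet1 KO lines KO1 and KO9 and the wild-type (WT) lines WT7 and WT17, and suffix b2 by KO15, KO25, WT12 and WT34. Neither the labels nor the study's text explains the suffix. Each line gave 1 library and occurred under 1 suffix, so a difference between suffixes and a difference between these sets of lines cannot be told apart. The title and the cell line label disagree for the libraries titled WT12 (label WT9) and WT17 (label WT12); the titles were used, and both libraries are WT under either name. Count totals ran from 18430028 to 20917851 in b1 and from 13916576 to 23680839 in b2. Tet1 was 38.7 to 819 CPM (counts scaled to a common library size) across b1 and 53.2 to 846 CPM across b2, with all 4 KO libraries between 38.7 and 54.2 CPM and all 4 WT libraries between 554 and 846 CPM, and it did not pass the test between suffixes (log2 difference 0.07 ± 0.15, adjusted p = 0.783).

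In the epiblast, NODAL and its co-receptor drive SMAD2 and SMAD3 and switch on their own inhibitors, while FGF signals through ERK, and both keep cells competent for the germ layers. EpiLCs have left naive pluripotency and carry formative factors such as FOXD3, ZIC2 and the de novo DNA methyltransferases. Energy metabolism is set by genes in 2 places, the circular mitochondrial genome and the nucleus, and both contribute subunits to the respiratory complexes. Processed pseudogenes are gene copies without introns, whose short reads can be hard to assign between copy and parent.

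Across the 18762 genes tested, 4285 (22.8%) were called at an adjusted p under 0.05, 2306 (12.3%) higher in b2 and 1979 (10.5%) lower. The genes called higher had a median log2 difference of 0.66 and those called lower a median of -0.50, against -0.0005 over all genes. An absolute log2 difference above 1 was passed by 993 of the called genes (5.29% of those tested), 690 higher and 303 lower. The values of the 4 b2 libraries and the 4 b1 libraries did not overlap for 4714 genes (25.1%), and 3617 of the 4285 called genes (84.4%) were among them. Leaving out KO9 lowered the number of genes called to 1433 higher and 1092 lower. Leaving out WT7 gave 1477 higher and 1114 lower, and leaving out KO1 gave 1668 higher and 1198 lower.

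The 2 genotypes were also set side by side. The log2 difference within the KO lines and that within the WT lines share no library, and they had the same sign in 4279 of the 4285 called genes and in 14507 of all 18762 (77.3%). The call pools both genotypes, which nearly fixes the first of these counts. Across all genes, which are not independent replicates, the 2 differences had a Pearson r of 0.47 and a Spearman rho of 0.65. With 2 libraries on each side, 1060 genes were called within KO and 715 within WT, and 557 were called in both. The product of genotype and suffix was called for 0 genes by edgeR, with 279 genes (1.49%) at an unadjusted p under 0.05, and DESeq2 called 3. Leaving out 1 line gave between 0 and 7 such genes, with 7 without WT34.

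**Figure D1:**
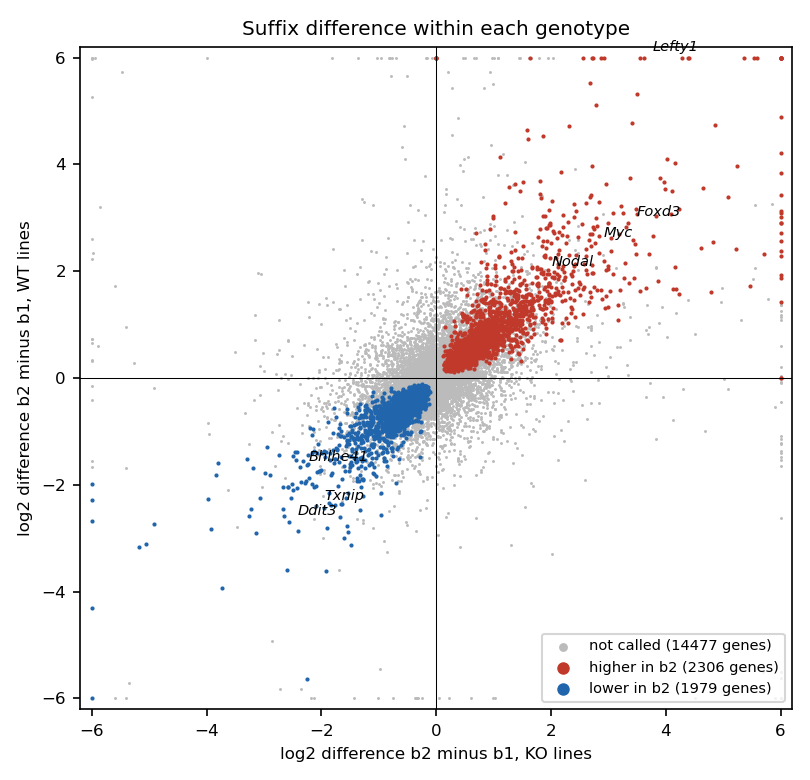
Each point is 1 of the 18762 genes, with its log2 difference b2 minus b1 within the 2 + 2 KO lines on the x axis and within the 2 + 2 WT lines on the y axis; red and blue mark the 2306 genes called higher and the 1979 called lower in b2, and the 142 genes beyond 6 on either axis are drawn at 6. The called genes lie in the quadrants where both genotypes have the same sign in 4279 of 4285 cases, which the pooled call nearly fixes.

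The genes with the largest increase in b2 were mostly near absent in b1 and included several developmental regulators. Values are given for KO1, KO9, WT7 and WT17 in b1 and then for KO15, KO25, WT12 and WT34 in b2. Lefty1, a secreted inhibitor and target of Nodal signalling, was 0.378, 0, 0.221 and 0.188 CPM in b1 and 3.97, 0.803, 29.2 and 13.3 CPM in b2 (log2 difference 5.56 ± 0.81 SE, adjusted p = 0.00177). The b2 libraries themselves spread widely, with KO25 the lowest. Foxd3, a transcription factor of the formative epiblast and neural crest, rose from 2.60, 2.62, 5.02 and 5.13 to 30.6, 22.4, 24.3 and 52.6 CPM (3.11 ± 0.25, adjusted p = 0.000147). Sall3, a zinc-finger factor, rose from 1.37, 0.807, 1.49 and 1.37 to 18.2, 6.49, 5.58 and 18.6 CPM (3.28 ± 0.46, adjusted p = 0.0015). The naming rule took only genes without overlap in CPM between the suffixes and with the same sign in both genotypes. Neither is therefore a finding about the genes it gave.

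Of the other 12 genes that the naming rule gave in this direction, Nkx1-2 (3.75 ± 0.35), a homeobox gene of the caudal epiblast, went from 0.110 to 0.235 to 1.97 to 2.84 CPM and Neurog3 (3.82 ± 0.71), a proneural factor, from 0.0471 to 0.276 to 0.876 to 3.82 CPM. Pla2g4c, a phospholipase, was 0.496 to 1.27 CPM in b1 and 7.27 to 16.3 CPM in b2 (3.56 ± 0.36), and Inka2 0.942 to 1.54 and 7.25 to 16.99 CPM (3.07 ± 0.31). The remaining members were Slc25a18, a mitochondrial glutamate carrier (4.93 ± 0.83), Casc1 (3.75 ± 0.80), the chemokine receptor gene Ccr4 (3.39 ± 0.59), the folate receptor gene Folr2 (3.33 ± 0.49), Tigd5 (3.30 ± 0.58), C78859 (3.20 ± 0.58), Il20rb (3.03 ± 0.61) and the collagen gene Col11a2 (2.97 ± 0.60). Slc25a18 had 3 counts in all of b1, from WT17, and 90 in b2, a ratio of 32.7 with an exact 95% counting interval of 10.8 to 162, and its fitted log2 difference without WT17 was 7.69. Casc1 was 7.95 CPM in KO25 and between 0.825 and 1.24 CPM in the other b2 libraries.

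Among the genes that the rule gave as lower in b2, Txnip, Neu1 and Ddit3 were well expressed in b1. Txnip, a glucose-induced inhibitor of glucose uptake and of thioredoxin, was 509, 579.5, 807 and 571 CPM in b1 and 144, 111, 92.5 and 168 CPM in b2 (-2.25 ± 0.20, adjusted p = 0.000195). Ddit3, which encodes the stress transcription factor CHOP, fell from 23.7, 28.7, 28.0 and 17.8 to 4.69, 4.16, 2.15 and 5.21 CPM (-2.63 ± 0.25, adjusted p = 0.000268). The annotation holds a second gene identifier named Ddit3 that overlaps the one used, so how reads were split between them is uncertain. Neu1, a lysosomal sialidase, fell from 38.8, 59.1, 49.8 and 40.2 to 11.3, 16.8, 15.0 and 11.05 CPM (-1.79 ± 0.18, adjusted p = 0.0003).

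The other genes that the rule gave in this direction were lower in level. Zmynd10, a gene of cilium motility, went from 1.88 to 3.48 to 0.0516 to 0.579 CPM (-3.00 ± 0.51), Sbsn from 5.04 to 6.67 to 0.567 to 1.78 CPM (-2.23 ± 0.30) and Wnt9a, a Wnt ligand, from 3.63 to 6.30 to 0.844 to 1.46 CPM (-1.87 ± 0.23). Eya1, a developmental phosphatase and co-activator, went from 4.99 to 7.56 to 1.13 to 2.63 CPM (-1.87 ± 0.28) and Pgf, a relative of the vascular growth factors, from 1.70 to 2.92 to 0.211 to 0.825 CPM (-2.10 ± 0.37). Cort (-2.31 ± 0.46), Gpr137c (-2.10 ± 0.26), Fn3k (-2.27 ± 0.64), the small nucleolar RNA Snora65 (-1.999 ± 0.45) and the mitochondrial transfer RNA gene mt-Tp (-1.89 ± 0.41) completed the list with Bhlhe41 and Nr1d1. The call of Fn3k was lost without KO1, KO9, WT17 and WT34 (-2.76 to -1.83 over the 8 fits that each left out 1 line).

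Bhlhe41 and Nr1d1 are repressors of the circadian clock, and the other clock genes were looked at after these values were seen. Nr1d1 was 13.6, 20.1, 16.4 and 10.0 CPM in b1 and 3.40, 3.72, 4.38 and 5.42 CPM in b2 (-1.83 ± 0.24, adjusted p = 0.00105), and Bhlhe41 23.9, 33.9, 18.6 and 20.0 CPM in b1 and 3.30, 8.10, 9.05 and 2.67 CPM in b2 (-2.02 ± 0.37, adjusted p = 0.00514). Per1, a core clock gene that also responds quickly to stimuli, fell from 54.2, 66.9, 64.8 and 58.5 to 22.3, 23.4, 23.3 and 26.1 CPM (-1.36 ± 0.09, adjusted p = 5.18e-05). Nfil3 (-0.92 ± 0.20), Dbp (-0.81 ± 0.21) and Cry1 (-0.47 ± 0.08) were also lower and Per2 was higher (1.184 ± 0.29, 1.31 to 2.64 CPM in b1 and 3.04 to 5.25 CPM in b2). On the log2(TPM + 1) scale Per2 was -0.12 and not called. The call of Per2 was lost without KO1, KO9, WT7 and WT34 (0.95 to 1.42) and that of Dbp without KO9, KO15 and WT34 (-1.02 to -0.66). Per3, Cry2, Tef, Nr1d2, Bhlhe40, Ciart, Arntl and Clock did not pass the test.

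In the Nodal pathway the genes called were ligands, the co-receptor and inhibitors, apart from Furin. Of 24 pathway genes tested, 8 were higher and 1 lower in b2, with a median of 0.23. Among ligands and the co-receptor 3 of 7 were higher, among inhibitors 5 of 8, and among receptors, processing enzymes and transducers 0 of 9, with Furin lower. Nodal was 7.03, 5.95, 12.2 and 9.98 CPM in b1 and 25.2, 21.97, 48.4 and 38.9 CPM in b2 (1.92 ± 0.12, adjusted p = 4.02e-05). Tdgf1, the co-receptor also called Cripto, was 27.8, 10.4, 41.0 and 37.5 CPM in b1 and 105, 35.2, 203 and 177 CPM in b2 (2.08 ± 0.35, adjusted p = 0.00368). The Nodal groups were separate, while for Tdgf1 the b2 library KO25 lay within the b1 range. Within each suffix, the WT lines were above the KO lines for both genes.

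Of the inhibitors, Smad7, Skil, Pmepa1, Fst and Lefty1 were higher and Lefty2 did not pass. Smad7, an intracellular inhibitor of the receptors, rose from 2.17, 1.56, 1.99 and 2.12 to 7.94, 8.54, 16.95 and 10.3 CPM (2.44 ± 0.22, adjusted p = 0.000214). Skil, which encodes the SMAD co-repressor SnoN, rose from 144, 121, 166 and 188 to 324, 394, 465 and 438 CPM (1.39 ± 0.09, adjusted p = 4.02e-05). Pmepa1, which sequesters receptor SMADs, rose from 1.65, 1.51, 1.38 and 1.32 to 4.69, 3.14, 7.65 and 6.19 CPM (1.84 ± 0.26, adjusted p = 0.00163). All 3 were separate between the suffixes in CPM. In TPM the groups of Pmepa1 overlapped, with the b1 library KO9 at 0.531 and the b2 library KO25 at 0.471. The extracellular inhibitor Fst was 2.26 to 3.73 CPM in b1 and 5.4002 to 10.3 CPM in b2 (1.42 ± 0.24), and the ligand Gdf3 33.4 to 40.4 and 50.1 to 61.9 CPM (0.67 ± 0.09). Lefty2 did not pass the test (1.48 ± 0.58, adjusted p = 0.094), with 0.309, 0.219, 2.89 and 0.985 CPM in b2 against 0.0504 to 0.607 CPM in b1. Furin, a convertase that processes the NODAL precursor, was -0.42 ± 0.12, and its call was lost without KO1, KO9, KO15, KO25, WT7, WT17 and WT34 (-0.54 to -0.33).

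**Figure D2:**
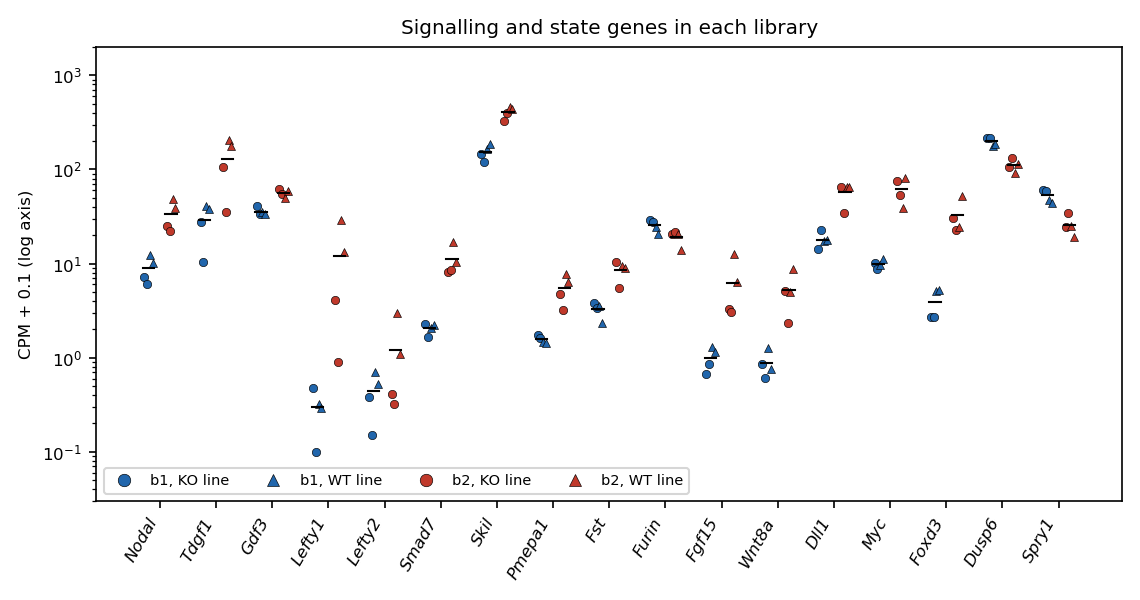
CPM plus 0.1 on a log axis for 17 signalling and state genes, with 1 point per library (circles KO lines, triangles WT lines, blue b1, red b2) and a line at the mean of each suffix. Nodal, Skil, Smad7, Myc and Foxd3 were separate between the suffixes, Dusp6 and Spry1 were lower in b2, and Lefty2 overlapped.

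The Wnt pathway showed no common direction, with 4 genes higher and 4 lower of 32 tested and a median of 0.08. Both shares were 12.5%, near the 12.3% and 10.5% over all genes. Of the 7 listed ligands tested 2 were higher and 0 lower, and Wnt9a, a ligand outside the list, was lower as given above. Wnt8a, a ligand of the posterior epiblast, rose from 0.755, 0.504, 1.16 and 0.659 to 5.05, 2.26, 4.84 and 8.58 CPM (2.72 ± 0.35, adjusted p = 0.00103), and Wnt5b had a log2 difference of 1.04 ± 0.31. The receptor gene Fzd10 (1.44 ± 0.33) and the transcription factor gene Lef1 (1.00 ± 0.23, 19.9 to 47.0 CPM in b1 and 34.8 to 87.1 CPM in b2) were higher too. The 4 genes lower in b2 were all of the receptor and core group, the co-receptor Lrp5 (-0.54 ± 0.09), the scaffold genes Dvl1 (-0.48 ± 0.08) and Dvl2 (-0.63 ± 0.07) and the kinase gene Csnk1a1 (-0.19 ± 0.06). Of the 8 targets and feedback inhibitors tested none passed by edgeR, with a median of -0.07, and Axin2, a standard target, was 8.83 to 10.8 CPM in b1 and 11.04 to 16.4 CPM in b2 (0.38 ± 0.15, adjusted p = 0.1). The call of Wnt5b was lost without KO1, KO9, KO25, WT7, WT12, WT17 and WT34 (0.72 to 1.25), that of Csnk1a1 without KO1, KO9, KO15, WT7 and WT34 (-0.22 to -0.16) and that of Lef1 without WT7 (0.88). Of 20 BMP pathway genes 2 were higher (10%, against 12.3% over all genes) and 0 lower. The 2 were the receptor gene Bmpr2 (0.39 ± 0.12) and the target Id2 (1.49 ± 0.42). The call of Bmpr2 was lost without KO9, KO15, KO25, WT7, WT12, WT17 and WT34 (0.27 to 0.49) and that of Id2 without KO9, KO15, WT7, WT17 and WT34 (1.13 to 1.77).

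Of 20 FGF and ERK genes tested 7 were higher and 4 lower in b2, among ligands and receptors 4 and 1 of 8. Fgf15, a ligand that also marks early neural tissue, rose from 0.566, 0.756, 1.21 and 1.04 to 3.20, 2.92, 12.4 and 6.19 CPM (2.68 ± 0.30, adjusted p = 0.000491), and the receptor gene Fgfr2 from 23.4, 16.8, 28.1 and 19.4 to 42.2, 42.5, 36.4 and 49.0 CPM (0.96 ± 0.16, adjusted p = 0.00302). The groups were separate for both. Dusp6, the cytoplasmic ERK phosphatase, fell from 217, 216, 177 and 185 to 105, 132, 91.5 and 114 CPM (-0.84 ± 0.09, adjusted p = 0.000397). Spry1, an inhibitor of receptor signalling, fell from 60.7, 58.8, 47.7 and 44.1 to 24.4, 34.4, 24.9 and 19.07 CPM (-1.04 ± 0.12, adjusted p = 0.000589). Of the 12 targets and feedback inhibitors tested 3 were higher and 3 lower: with these 2, the phosphatase gene Dusp4 was lower (-0.68 ± 0.13), and Spred2 (0.51 ± 0.08), Dusp5 (0.60 ± 0.15) and Etv5 (0.16 ± 0.05) were higher. Fgf4 (0.38 ± 0.10) and Fgf5 (0.62 ± 0.16) were higher and Fgfr4 lower (-0.80 ± 0.23). Calls were lost for Fgf4 without KO1, KO9, KO15, KO25, WT17 and WT34 (0.30 to 0.49), for Fgf5 without KO1, KO9, KO25, WT7 and WT12 (0.47 to 0.76) and for Fgfr4 without KO1, KO15, KO25, WT7, WT17 and WT34 (-0.93 to -0.63). They were also lost for Dusp5 without KO9, KO15 and WT34 (0.47 to 0.71) and for Etv5 without KO1, KO9, KO15, KO25, WT7, WT17 and WT34 (0.14 to 0.18).

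Immediate early genes, which are switched on within minutes of a stimulus, moved both ways, with 4 higher and 2 lower of 12. Myc, a growth-promoting transcription factor, was 10.1, 8.67, 9.49 and 11.02 CPM in b1 and 74.8, 53.6, 38.7 and 80.6 CPM in b2 (2.65 ± 0.23, adjusted p = 0.000185). The lowest b2 library, WT12, was above 3 times the highest b1 library. Ier2 rose from 40.3 to 51.4 to 63.5 to 89.8 CPM (0.79 ± 0.12) and the nuclear receptor gene Nr4a1 fell from 27.9 to 33.5 to 15.3 to 20.7 CPM (-0.79 ± 0.11). Egr1 was 4.69, 27.2, 9.84 and 4.64 CPM in b2 against 1.75 to 4.30 CPM in b1 (2.09 ± 0.61), with KO25 above the rest, and its call was lost without KO1, KO9, WT12 and WT17 (1.21 to 2.48). Fosl1 was 1.43 ± 0.33 and its call was lost without KO9 (1.33).

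Notch genes were called higher more often than lower, 5 (33.3%) against 1 (6.67%) of 15, and so were Hippo genes, 5 (41.7%) against 1 (8.33%) of 12. Over all genes tested the shares were 12.3% and 10.5%. The median log2 difference of the Notch list was -0.17 within the KO lines and 0.42 within the WT lines. The median level of the Hippo list, in log2(TPM + 1), overlapped between the suffixes, at 3.22 to 3.29 in b1 and 2.83 to 3.78 in b2. The Notch ligand gene Dll1 rose from 14.0, 22.4, 17.3 and 17.7 to 65.0, 34.1, 65.4 and 64.9 CPM (1.67 ± 0.21, adjusted p = 0.000953), the ligand gene Jag1 from 6.30 to 7.34 to 10.5 to 19.5 CPM (0.98 ± 0.16) and the receptor gene Notch2 from 100.2 to 110.1 to 124 to 137 CPM (0.34 ± 0.06). Amotl2, which holds YAP at junctions, rose from 162, 144, 158 and 156 to 255, 390.1, 333 and 282 CPM (1.03 ± 0.12, adjusted p = 0.00066). The Hippo regulators Ajuba (0.74 ± 0.07) and Lats1 (0.84 ± 0.12) and the YAP target Ccn2 (0.87 ± 0.12) rose with it. The retinoic acid list had 3 higher and 0 lower of 12, led by the receptor gene Rara (0.88 ± 0.15, 21.5 to 24.1 CPM in b1 and 34.6 to 55.7 CPM in b2). In TPM the groups of Rara overlapped, at 5.34, 7.05, 8.23 and 8.14 in b1 and 11.5, 7.03, 11.1 and 8.31 in b2. Of 15 p53 targets 4 were higher and 1 lower, with the cell cycle inhibitor Cdkn1a at 0.72 ± 0.15, Mdm2, which degrades p53, at 0.53 ± 0.09, Sesn2 at 0.56 ± 0.09 and Aen at 0.42 ± 0.08. Of 11 interferon response genes 0 were higher and 2 lower: Stat2, a transducer of type I interferon, fell from 64.6, 78.3, 89.4 and 73.4 to 27.6, 36.3, 34.8 and 30.0 CPM (-1.25 ± 0.12, adjusted p = 0.000254), and Bst2 from 94.4 to 116 to 66.5 to 85.6 CPM (-0.49 ± 0.09).

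**Figure D3:**
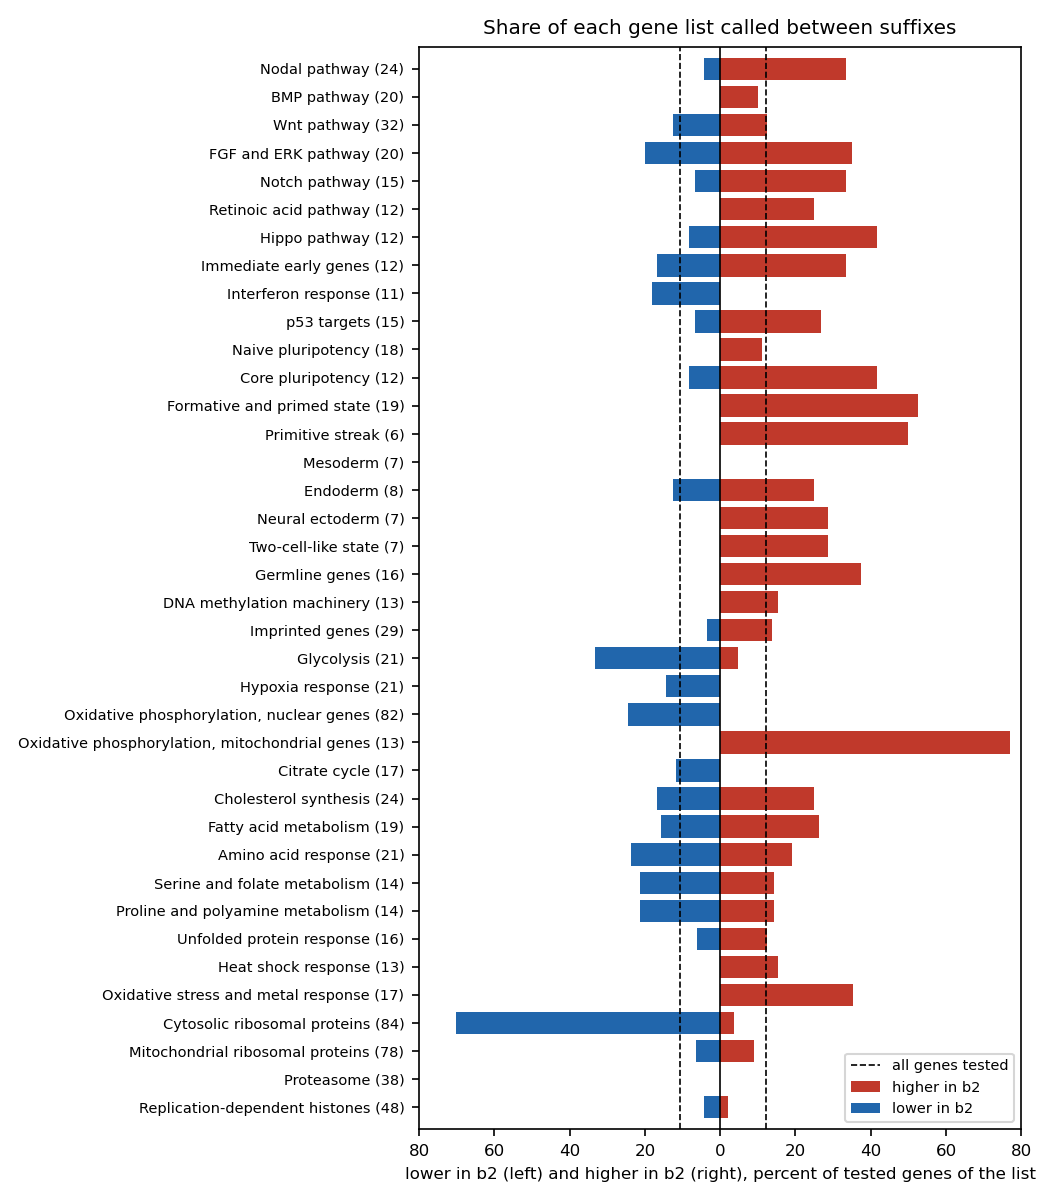
For each list of signalling, state, metabolic and translation genes, the percent of its tested genes (number in parentheses) called higher in b2 to the right and lower to the left, with dashed lines at the shares over all genes tested, 12.3% and 10.5%. The mitochondrial genes (10 of 13) and the formative list (10 of 19) reach furthest to the right, and the cytosolic ribosomal proteins (59 of 84) furthest to the left.

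Of the lists of cell state, the formative and primed one had the largest share called, with 10 of 19 genes higher in b2 and 0 lower (median 0.54). Zic5, a zinc-finger factor next to Zic2 in the genome, rose from 89.4, 88.1, 107 and 112 to 175, 219.9, 211 and 223 CPM (1.07 ± 0.08, adjusted p = 0.000104) and Zic2 from 85.2, 96.8, 78.9 and 89.9 to 156, 140.5, 141 and 164 CPM (0.78 ± 0.08, adjusted p = 0.0004). Both were separate between the suffixes, as Foxd3 was. Sox3 (0.70 ± 0.16) and the de novo methyltransferase gene Dnmt3a (0.54 ± 0.12) were also higher, with Dnmt3a at 893, 942, 626 and 933 CPM in b2 against 565 to 613 CPM in b1. Pou3f1 was 0.88 ± 0.22 and its call was lost without KO9, WT7 and WT34 (0.59 to 1.03), and Sall2 was 0.78 ± 0.18 and lost its call without WT7 (0.66). Dnmt3b, at 1940 to 2238 CPM in b1 and 2046 to 2373 CPM in b2, did not pass the test (0.07 ± 0.06), and neither did Otx2 (0.14 ± 0.21).

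The core pluripotency list had 5 higher and 1 lower of 12. The naive list had 2 higher (11.1%, near the 12.3% over all genes) and 0 lower of 18. Sall4, a zinc-finger factor of pluripotent cells, was 169, 170.0, 165 and 169 CPM in b1 and 306, 325, 281 and 295 CPM in b2 (0.84 ± 0.06, adjusted p = 4.88e-05). The 4 values of each suffix lay within a narrow range. L1td1, an RNA-binding protein gene of pluripotent cells, rose from 274, 218, 287 and 320.1 to 658, 498, 464 and 651 CPM (1.05 ± 0.14), Zfp281 from 127 to 143 to 199.99 to 249.9 CPM (0.69 ± 0.08) and Dppa2 from 44.3 to 62.7 to 68.1 to 102 CPM (0.72 ± 0.14). Of the naive list, Klf2 rose from 13.9, 14.2, 21.8 and 16.1 to 36.6, 31.3, 27.2 and 49.4 CPM (1.14 ± 0.18, adjusted p = 0.00293). Pou5f1, the gene of OCT4, was 637 to 752 CPM in b1 and 665 to 733 CPM in b2 and did not pass (0.03 ± 0.06), and neither did the naive genes Zfp42 (0.24 ± 0.24) and Esrrb (-0.74 ± 0.27, adjusted p = 0.0779). Tet2, Tcf7l1, Tcf7, Lgr4, Pou2f2 and T, which the study's text names, had log2 differences between -0.10 and 0.52 and did not pass, and Sp5 and Wnt9b had too few counts to test.

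Of the 6 primitive streak genes tested 3 were higher in b2 and 0 lower, Eomes, Foxa2 and Apela. Eomes, a T-box factor downstream of Nodal, was 2.36, 2.07, 1.27 and 0.706 CPM in b1 and 5.83, 5.91, 2.65 and 2.74 CPM in b2 (1.43 ± 0.21, adjusted p = 0.00206). Foxa2 was 0.378, 0.202, 0.276 and 0.659 CPM in b1 and 1.70, 1.31, 1.32 and 1.06 CPM in b2 (1.82 ± 0.42, adjusted p = 0.0137). Apela, which encodes a secreted ligand of the apelin receptor, was at a higher level, 20.8 to 42.3 CPM in b1 and 26.6 to 67.4 CPM in b2, with overlapping groups (0.74 ± 0.21, call lost without KO1, KO9, KO15, KO25, WT7, WT17 and WT34, 0.46 to 0.90). Of the endoderm list 2 of 8 were higher with 1 lower (Hhex, -0.77 ± 0.17, call lost without WT7 at -0.69), and of the mesoderm list 0 of 7 passed in either direction by edgeR. Of 7 neural ectoderm genes 2 were higher: Sox1 was 12.6, 6.28, 2.81 and 15.5 CPM in b2 against 1.82 to 3.59 CPM in b1 (1.92 ± 0.49, call lost without KO9, KO15, WT7, WT17 and WT34, 1.28 to 2.24). Nes, an intermediate filament gene, was 61.4, 82.2, 145 and 47.7 CPM against 35.5 to 42.8 CPM (1.11 ± 0.29, call lost without KO1, KO9, KO25, WT7 and WT17, 0.67 to 1.32).

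Tex19.1, a germline gene whose promoter is silenced by DNA methylation in somatic cells, rose from 19.8, 21.8, 16.5 and 18.0 to 51.3, 53.3, 28.7 and 57.5 CPM (1.32 ± 0.18, adjusted p = 0.00133), and Sycp1, of the synaptonemal complex, from 2.78 to 3.78 to 6.35 to 9.29 CPM (1.19 ± 0.18). In all, 6 of 16 germline genes were higher and 0 lower, with Hormad1 (0.78 ± 0.15) and Rpl10l (0.86 ± 0.13) among them. Of 7 genes of the 2-cell-like state 2 were higher, Zscan4d (3.62 ± 0.82, at 0 to 0.142 CPM in b1 and 0.292 to 1.65 CPM in b2) and Zscan4f (2.61 ± 0.81). They are near-identical paralogs, so their split is uncertain, and their calls were lost without WT7 for Zscan4d (3.68) and without KO9, KO25, WT7, WT12, WT17 and WT34 for Zscan4f (2.13 to 3.33). Among 29 imprinted genes 4 (13.8%) were higher, near the 12.3% over all genes, and 1 lower: Zdbf2 rose from 60.9, 38.7, 93.9 and 114 to 246, 129.9, 258 and 260.1 CPM (1.61 ± 0.22, adjusted p = 0.00135), Magel2 from 0.504 to 1.27 to 2.95 to 5.95 CPM (2.30 ± 0.30) and the antisense transcript Kcnq1ot1 from 64.3 to 123 to 92.4 to 187 CPM (0.71 ± 0.15). Of 13 genes of the DNA methylation machinery 2 were higher (15.4%, against 12.3% over all genes). They were Dnmt3a and the dioxygenase gene Tet3 (0.98 ± 0.10, 26.1 to 34.8 CPM in b1 and 55.7 to 64.6 CPM in b2).

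Lists of markers of other cell types were set beside the shares over all genes tested, 12.3% higher and 10.5% lower. For extraembryonic endoderm 2 of 11 tested were higher (18.2%) and 1 lower (9.09%). Apoe fell from 503, 547, 685 and 455 to 196, 283, 258 and 298 CPM (-1.08 ± 0.14) and Rhox5, a homeobox gene also active in ESCs, rose from 94.9, 109, 131 and 132 to 229, 196, 266 and 255.8 CPM (1.02 ± 0.07). Among the defining markers, Sox17 had 1 to 9 counts in a library, Afp 0 or 1 and Ttr 0, and Gata6 was 0.662 to 0.944 CPM in b1 and 0.331 to 1.02 CPM in b2. For feeder fibroblasts 1 of 8 was higher (12.5%) and 2 lower (25%). Postn was at 0 counts in all libraries, and Col3a1 had 0 to 4 counts in 7 libraries and 53 in KO25. Thy1, which pluripotent cells also express, was -0.96 ± 0.30 and lost its call without KO1, KO9, KO15, KO25, WT7, WT17 and WT34 (-1.44 to -0.76). For trophoblast 3 of 7 were higher (42.9%, against 12.3% over all genes) and 0 lower, Gcm1 (2.14 ± 0.41, 0.605 to 0.827 CPM in b1 and 1.82 to 5.72 CPM in b2), Gata3 (1.56 ± 0.27, 0.802 to 1.06 and 2.27 to 3.799 CPM) and Tfap2c (0.68 ± 0.13), while Cdx2 had 0 to 11 counts. Of the 7 trophoblast genes tested 4 had a positive and 3 a negative log2 difference, the lowest -0.77. The median level of the trophoblast list, in log2(TPM + 1), overlapped between the suffixes, at 0.293 to 1.03 in b1 and 0.500 to 0.997 in b2. The part of other cell types in the differences was not tested.

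Of the 13 protein-coding genes of the mitochondrial genome 10 were higher in b2 and 0 lower, with a median of 0.88. mt-Nd1, a subunit of complex I, was 1464, 1188, 2111 and 1566 CPM in b1 and 3266, 3344, 3633 and 3677 CPM in b2 (1.15 ± 0.11, adjusted p = 0.000269), and mt-Nd2 846, 749, 1244 and 831 CPM in b1 and 1862, 2165, 2120 and 2077 CPM in b2 (1.176 ± 0.13, adjusted p = 0.000423). All 4 b2 libraries were above all 4 b1 libraries for both. mt-Cytb of complex III (0.88 ± 0.12), mt-Nd4 (0.88 ± 0.15), mt-Nd4l (0.74 ± 0.16), mt-Nd5 (0.68 ± 0.18) and mt-Atp8 of the ATP synthase (0.89 ± 0.09) were also higher. The call of mt-Nd5 was lost without KO9, KO25, WT12 and WT17 (0.53 to 0.88). mt-Nd6, the one protein-coding gene on the light strand, was 113 to 165 CPM in b1 and 102 to 127 CPM in b2 (-0.19 ± 0.13, adjusted p = 0.322). The ribosomal RNA gene mt-Rnr1 was higher (0.80 ± 0.19) and mt-Rnr2, the more abundant one, did not pass (0.38 ± 0.22, adjusted p = 0.248), whereas the transfer RNA genes mt-Tp and mt-Tw (-1.43 ± 0.34, 1.65 to 5.09 CPM in b1 and 0.985 to 1.53 CPM in b2, call lost without KO9, KO15 and WT7, -1.63 to -1.15) were lower. The transfer RNA genes mt-Tk and mt-Tn, at no more than 1.06 and 0.656 CPM in any library, were called lower too. The RNA genes were picked after their values were seen.

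How reads divide between mitochondrial genes and their nuclear copies bears on single values. Chromosome 1 holds a row of pseudogenes on the minus strand that copy 7 of these genes. For the pairs of mt-Nd3 and mt-Co2 alone, the first 60 bases are printed here from the GENCODE M21 transcripts (mm10). Bases are in lower case, with differing bases in capitals.
Gm28438 (chr1:24613060-24613119): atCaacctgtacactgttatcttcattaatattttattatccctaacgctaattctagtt
mt-Nd3 (chrM:9459-9806, whole gene): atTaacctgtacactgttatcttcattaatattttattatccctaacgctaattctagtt
Gm28661 (chr1:24615506-24615565): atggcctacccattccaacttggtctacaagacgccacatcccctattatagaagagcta
mt-Co2 (chrM:7013-7696, whole gene): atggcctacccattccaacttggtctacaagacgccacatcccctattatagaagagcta
Over their whole length Gm28438 and mt-Nd3 differ at 1 of 345 aligned bases, and Gm28661 and mt-Co2 at 0 of 681. A read of 50 bases from most of mt-Nd3, or from any place in those 681 bases, therefore matches both genes equally.

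The deposited counts put most reads on the nuclear copy for mt-Co2, mt-Nd3, mt-Co3 and mt-Atp6, and on the mitochondrial gene for mt-Co1 and mt-Nd4. For mt-Nd4l they were divided more evenly. Gm28661 was 2034 to 2582 CPM in b1 and 2284 to 2547 CPM in b2 (0.12 ± 0.07) while mt-Co2 was 124, 68.4, 258 and 60.6 CPM in b1 and 156, 461, 685 and 407 CPM in b2 (1.73 ± 0.46). With the copies joined to their mitochondrial genes before the fit, 9 of the 13 genes were called and the difference of mt-Co2 became 0.27 ± 0.09 (adjusted p = 0.0600). That of mt-Co3 went from 1.04 ± 0.26 to 0.31 ± 0.10 (adjusted p = 0.0575) and that of mt-Nd3 from 2.37 ± 0.73 to 1.46 ± 0.07 (adjusted p = 9.22e-06). mt-Atp6, not called alone (0.38 ± 0.25), was 0.65 ± 0.08 when joined with Gm10925 (adjusted p = 0.000977). mt-Co1 did not pass either way (0.24 ± 0.11 alone and 0.22 ± 0.11 joined). Without joining, the call of mt-Co2 was also lost without KO9, KO25 and WT12 (1.37 to 2.22), that of mt-Nd3 without KO1, KO25, WT7, WT12 and WT34 (1.75 to 2.89) and that of mt-Co3 without KO1 (0.99). Together, the 13 genes and their 7 copies took 2.24%, 2.04%, 2.79% and 2.20% of all counts in b1 and 2.83%, 3.40%, 3.94% and 3.22% in b2, with WT7 the highest b1 library and close to KO15.

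Nuclear genes of the respiratory chain went the other way, and by less. Of 82 tested 0 were higher and 20 lower in b2, with a median of -0.15. Cox6b2, a testis-enriched subunit of complex IV, fell from 40.7, 39.7, 44.5 and 40.6 to 15.6, 16.0, 28.4 and 18.7 CPM (-1.09 ± 0.15, adjusted p = 0.00123), and it was the one member of the list beyond a log2 difference of 1. Atp5j2 of the ATP synthase (-0.40 ± 0.07, 67.1 to 85.5 CPM in b1 and 50.3 to 66.7 CPM in b2) and the complex I genes Ndufa13 (-0.34 ± 0.06) and Ndufa6 (-0.39 ± 0.07) were also lower, each with separate groups. Of 17 citrate cycle genes 2 were lower (11.8%, near the 10.5% over all genes) and 0 higher. The 2 were Idh2 (-0.57 ± 0.07, 71.9 to 83.6 CPM in b1 and 50.0 to 55.9 CPM in b2) and Fh1 (-0.28 ± 0.06).

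Of 21 glycolysis genes 7 were lower and 1 higher, with a median of -0.19. The median level of the list's genes, in log2(TPM + 1), overlapped between the suffixes, at 6.65, 6.91, 6.47 and 6.92 in b1 and 6.31, 7.14, 6.66 and 6.21 in b2, with KO25 the highest of all libraries. Eno2, an enolase also used as a neuronal marker, fell from 7.13, 7.82, 6.67 and 7.25 to 1.39, 3.06, 2.73 and 2.11 CPM (-1.64 ± 0.23, adjusted p = 0.00162). The phosphofructokinase gene Pfkm (-0.54 ± 0.10), Gpi1 (-0.36 ± 0.07) and Aldoa (-0.31 ± 0.05, 1461 to 1689 CPM in b1 and 1166 to 1332 CPM in b2) fell by less. The lactate exporter gene Slc16a3 was the one that rose, from 110.3, 98.5, 101 and 120.0 to 234, 166, 191 and 222 CPM (0.92 ± 0.11, adjusted p = 0.000744). Of 21 hypoxia response genes 3 were lower (14.3%, against 10.5% over all genes) and 0 higher. The 3 were Vegfa (-0.66 ± 0.14), Mif (-0.31 ± 0.06) and Ddit4 (-0.77 ± 0.20). Ddit4 lost its call without KO1, KO9, KO15, KO25 and WT17 (-1.07 to -0.60). Of genes known to follow glucose like Txnip, and chosen after its value was seen, Klf10 fell from 80.7 to 115 to 32.2 to 51.6 CPM (-1.17 ± 0.12) and Arrdc4 from 55.8 to 81.1 to 40.9 to 63.8 CPM (-0.39 ± 0.11, call lost without KO9, KO15, WT7, WT17 and WT34, -0.50 to -0.32).

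**Figure D4:**
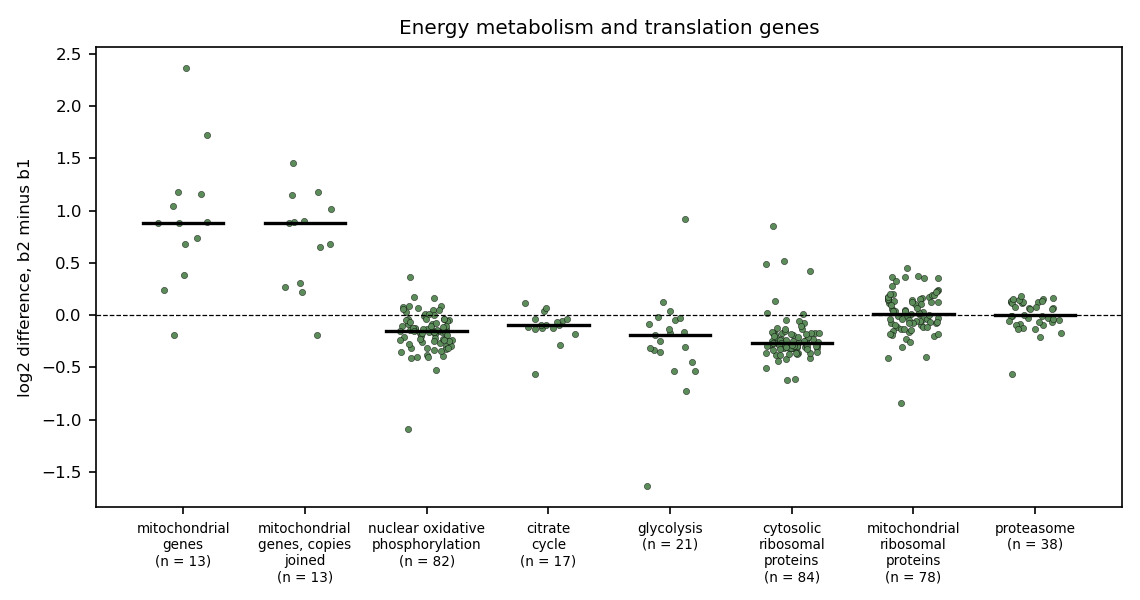
Each point is the log2 difference b2 minus b1 of 1 gene of the list named under it, with the number of genes, and the bar is the list's median. The mitochondrial genes (median 0.88) lie above 0 except mt-Nd6, also with nuclear copies joined, and most nuclear oxidative phosphorylation and cytosolic ribosomal protein genes lie below it.

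The amino acid response, which ATF4 directs when amino acids run short, had 5 genes lower (23.8%) and 4 higher (19.0%) of 21. Beside Ddit3, the lower genes included Nupr1 (68.1, 70.04, 70.6 and 46.0 CPM in b1 and 22.9, 39.0, 16.5 and 27.3 CPM in b2, -1.29 ± 0.21, adjusted p = 0.00315) and Cebpg (-0.57 ± 0.08, 65.8 to 73.2 and 43.8 to 52.3 CPM). The higher genes included Stc2 (0.83 ± 0.11, 15.3 to 18.6 and 26.8 to 35.8 CPM) and the cystine transporter gene Slc7a11 (0.99 ± 0.23), whose call was lost without KO9 (0.81). Against 12.3% higher and 10.5% lower over all genes tested, serine and folate metabolism had 2 genes higher (14.3%) and 3 lower (21.4%) of 14. Among the lower genes were Gldc, which cleaves glycine in mitochondria, at 537, 569, 497 and 437 CPM in b1 and 357, 421, 296 and 291 CPM in b2 (-0.59 ± 0.07) and Phgdh, the first enzyme of serine synthesis, at -0.49 ± 0.09. For polyamines, Amd1, which supplies the aminopropyl donor, was higher (0.63 ± 0.09) and Sat1, which starts their breakdown, lower (-0.66 ± 0.12).

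Slc30a1, the zinc exporter of the cell surface and a target of the zinc sensor MTF1, had the smallest p of its list and a wide gap between suffixes. It was 17.5, 20.6, 19.9 and 21.1 CPM in b1 and 104, 149, 138 and 154 CPM in b2 (2.78 ± 0.12, adjusted p = 1.58e-05). The lowest b2 library was nearly 5 times the highest b1 library. Mt1 (0.25 ± 0.16, adjusted p = 0.296) and Mt2 (0.58 ± 0.21, adjusted p = 0.0794), metallothionein genes under the same factor, did not pass the test, and the zinc transporter gene Slc30a2, looked at after this value was seen, was 3.72 to 5.34 CPM in b1 and 7.53 to 11.8 CPM in b2 (1.10 ± 0.18). Genes that NRF2 induces rose in the same list: Srxn1 from 17.7, 13.0, 20.96 and 22.03 to 47.9, 38.1, 49.9 and 56.8 CPM (1.40 ± 0.12, adjusted p = 0.000188), Hmox1 from 52.6 to 68.1 to 69.7 to 122 CPM (0.71 ± 0.15) and the glutathione synthesis gene Gclm from 192 to 209 to 238 to 269.9 CPM (0.33 ± 0.06). Gclc was 0.58 ± 0.13, its call lost without KO9 (0.52). In all 6 of 17 were higher and 0 lower.

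Lipid genes were mixed, with 25% of cholesterol genes higher and 16.7% lower, and 26.3% of fatty acid genes higher and 15.8% lower. Over all genes tested these shares were 12.3% and 10.5%. Of 24 cholesterol genes 6 were higher and 4 lower, with Hsd17b7 rising from 21.5 to 28.6 to 40.9 to 48.6 CPM (0.82 ± 0.09) and the enzymes Sqle (0.45 ± 0.06), Cyp51 (0.46 ± 0.08) and Sc5d (0.43 ± 0.09) by less, while Tm7sf2 fell (-0.47 ± 0.10). Of 19 fatty acid genes 5 were higher and 3 lower, with the elongase gene Elovl6 (0.65 ± 0.10) and the desaturase gene Scd2 (0.48 ± 0.09) higher and Cpt2 of mitochondrial uptake lower (-0.45 ± 0.10, call lost without WT7 at -0.42).

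Cytosolic ribosomal protein genes were the list with the largest share lower in b2, 59 of 84 against 3 higher, with a median of -0.26. Rps12 fell from 326, 331, 292 and 306 to 225, 189, 199 and 209 CPM (-0.61 ± 0.07, adjusted p = 0.000447) and Rps2 from 1709, 1829, 1715 and 1562 to 1356, 1309, 1130 and 1231 CPM (-0.44 ± 0.06, adjusted p = 0.00108). The changes were small and the groups separate. Rpl35 (-0.50 ± 0.07), Rpl26 (-0.42 ± 0.06) and Rpl9 (-0.36 ± 0.05) were among the genes with the smallest p. The 3 higher genes were the testis paralog Rpl10l, Rpl7l1 (0.51 ± 0.11) and Rpl5 (0.42 ± 0.07), and Rpl5 became -0.20 ± 0.07 (adjusted p = 0.0217) once its pseudogenes were joined to it. Mitochondrial ribosomal protein genes had 7 higher and 5 lower of 78 (8.97% and 6.41%, against 12.3% and 10.5% over all genes). Of 38 proteasome genes 0 passed by edgeR in either direction. Of 14 host genes of small nucleolar RNAs, many of which share the promoter type of ribosomal protein genes, 5 were lower and 0 higher, among them Gas5 (-0.47 ± 0.08, 200.4 to 264 CPM in b1 and 156 to 168 CPM in b2) and Snhg8 (-0.47 ± 0.08). Of 10 nuclear long noncoding RNAs 4 were higher, with Tug1 at 0.40 ± 0.08, and 1 lower, Malat1 (1380, 2360, 2002 and 2357 CPM in b1 and 1129, 1229, 1192 and 1569 CPM in b2, -0.66 ± 0.15). Of 19 S phase genes 4 were higher (21.1%) and 1 lower (5.26%), against 12.3% and 10.5% over all genes. Ccne2 (1.34 ± 0.10, 10.1 to 11.9 and 25.03 to 30.97 CPM) was the one called beyond a log2 difference of 1. Of 20 mitosis genes 2 were higher (10%) and 1 lower (5%).

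The same programs were read as shares of all counts in a library. Ribosomal protein genes took 4.55%, 4.84%, 4.21% and 4.39% of counts in b1 and 3.72%, 3.66%, 3.61% and 3.52% in b2. Nuclear genes of oxidative phosphorylation took 0.780% to 0.881% in b1 and 0.705% to 0.752% in b2, and mitochondrial genes 1.27% to 1.86% in b1 and 1.91% to 2.70% in b2. All 3 shares were separate, and each reached the smallest p of the two-sided exact permutation test over 70 assignments, 0.0286, or 0.0571 adjusted over the 6 measures tested. Without WT7 their adjusted p was 0.0429, and without any 1 of the other 7 lines it was 0.0571 to 0.114. Long noncoding RNA genes took 1.70% to 4.30% in b1 and 3.71% to 4.34% in b2 (exact permutation p = 0.114), with WT7 the high b1 library, and without it their difference was 1.95 percentage points against 1.38 with it (adjusted exact permutation p = 0.0429 and 0.171). As a share of TPM the difference of long noncoding RNA genes was 0.0910 percentage points (adjusted exact permutation p = 0.657). The number of genes with at least 1 CPM, 14904 to 15329 over all libraries, did not separate the suffixes (exact permutation p = 0.514).

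Of 1739 pseudogenes tested, 187 were higher and 88 lower in b2, with a median of 0.13. Both shares, 10.8% and 5.06%, were below those over all genes tested, 12.3% and 10.5%. As a share of counts they took 5.63% to 5.82% in b1 and 5.54% to 5.96% in b2 (exact permutation p = 0.914), and as a share of TPM, which divides by length, 29.2% to 30.9% in b1 and 27.6% to 29.0% in b2. Each pseudogene was set beside the tested gene with which it shared most 31-base words. Those whose best gene was a cytosolic ribosomal protein gene had 18 higher and 47 lower of 342, and those with another nuclear gene 156 higher and 36 lower of 1322. Among the 152 called pseudogenes whose best gene was called too, 131 had the direction of that gene, 19 were higher while the gene was lower, and 2 the reverse. Rpl3-ps1 (-0.38 ± 0.05, 1500 to 1764 CPM in b1 and 1179 to 1316 CPM in b2) and Rpl23a-ps3 (-0.72 ± 0.09) fell as ribosomal protein genes did. Where words are shared, reads of a parent can be counted on its copy, so these directions are uncertain for the copies themselves.

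Of the pseudogenes named by rule, the one with the largest fitted difference was at 0 in all of b1. Gm12989 was 0 CPM in the 4 b1 libraries and 5.16, 3.43, 1.98 and 2.60 CPM in b2 (adjusted p = 0.000362). Against the 0.163 CPM that 3 counts give in the smallest b1 library, its mean in b2, 3.29 CPM, was at least 20.2-fold higher. It is a copy of the proteasome gene Psma5, from which it differs at 113 of 731 aligned bases, and Psma5 itself was 108 to 122 CPM in b1 and 100.3 to 131 CPM in b2. A stretch of 60 bases, picked because it holds a few differences (3), shows the bases that part them there, in capitals (mm10, minus strand).
Gm12989 (chr4:135716261-135716320): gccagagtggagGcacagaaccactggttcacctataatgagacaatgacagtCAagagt
Psma5 (chr3:108256926-108279974, whole gene): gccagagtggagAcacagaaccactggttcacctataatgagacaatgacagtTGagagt

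The other pseudogenes named by rule were Gm46209 (0, 6.61, 0 and 2.45 CPM in b1 and 10.6, 63.4, 51.6 and 51.5 CPM in b2, 4.30 ± 0.96, call lost without KO25 at 3.86), Gm2808 (0.519, 0, 0 and 0 CPM in b1 and 1.17 to 4.08 CPM in b2, 4.26 ± 0.93, and 8.78 without KO1), Gm13135 (0 to 1.98 and 8.47 to 17.7 CPM, 3.72 ± 0.61) and Gm5819 (2.73 ± 0.64, call lost without WT17 at 2.54) among those higher. Lower in b2 were H2-K2, a relative of the class I histocompatibility genes (5.24, 9.13, 6.89 and 3.39 CPM in b1 and 0.670, 0.876, 1.12 and 0.704 CPM in b2, -2.82 ± 0.34), Gm42672 (-2.31 ± 0.40) and Gm15186 (-2.12 ± 0.25). Rpl17-ps3 was 100.0, 88.8, 79.8 and 73.4 CPM in b1 and 32.4, 17.7, 20.7 and 0 CPM in b2 (-2.34 ± 0.65, call lost without KO1, KO9, KO25, WT7 and WT17, -2.83 to -1.90), and Gm13240 was -2.20 ± 0.58 (call lost without KO9, KO15, WT7 and WT17, -2.81 to -1.85).

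One repeated family accounted for part of the pseudogene calls. Of the 1739 pseudogenes 47, on 10 chromosomes, shared most words with Gm47164 or Gm37158, predicted genes of 5690 and 5704 exonic bases, and 31 of the 47 were higher and 0 lower (median 0.92), leaving 156 higher among the rest. Gm47164 was 388, 377, 501 and 578 CPM in b1 and 1755, 1479, 1657 and 1807 CPM in b2 (1.88 ± 0.10, adjusted p = 3.76e-05), and Gm37158 21.6, 25.3, 32.9 and 29.6 CPM in b1 and 77.5, 90.0, 245 and 103 CPM in b2 (2.16 ± 0.25, adjusted p = 0.000592). The summed level of all 49 was 884, 908, 1128 and 1305 CPM in b1 and 3553, 3254, 4405 and 3736 CPM in b2. The groups were separate by more than 2 times. Copies of such a family share reads, so the members are not independent, and the family was singled out after its values were seen. Gm48493, the predicted gene with the smallest p outside these classes, was 83.3, 105, 157 and 168 CPM in b1 and 590.0, 461, 509 and 625 CPM in b2 (2.14 ± 0.16).

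The structure of the protein-coding genes called differed with direction. Mitochondrial genes and replication-dependent histone genes were left out of the classes by exons, GC content and length. Of 326 single-exon genes 76 (23.3%) were higher and 16 (4.91%) lower in b2, while of 1956 genes with over 20 exons 178 (9.10%) were higher and 266 (13.6%) lower. The classes between, from 2 to 5 up to 11 to 20 exons, had 17.8%, 13.0% and 10.8% higher and 9.43%, 12.4% and 13.3% lower. The single-exon genes at over 10 CPM had 41 higher and 7 lower of 104, and genes of several exons at that level 1390 and 1351 of 8748. By GC content of the exons, the 3585 genes under 44.7% had 606 higher and 281 lower, and the 3584 above 54.7% had 375 higher and 623 lower, with medians of 0.06 and -0.10. By exonic length the 3585 shortest genes had 335 higher and 458 lower, and the 3584 longest 559 and 372. These properties are linked with each other and with how a library is made, and their part in the differences was not tested.

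**Figure D5:**
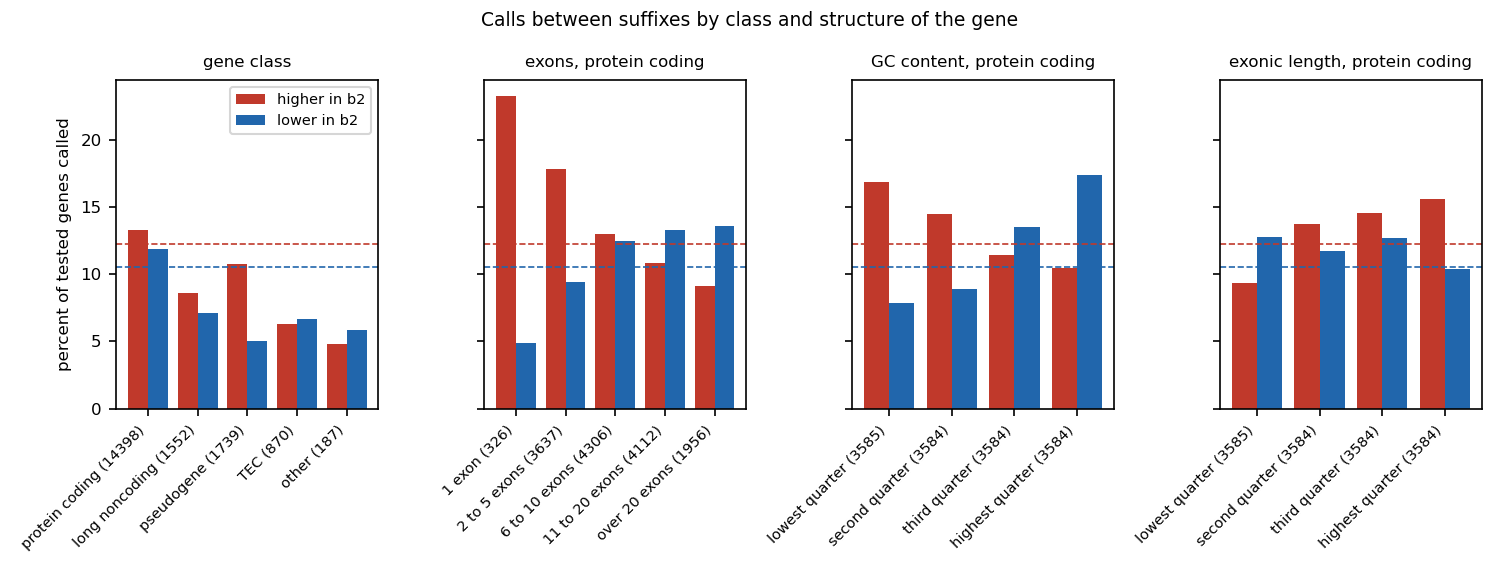
Percent of tested genes called higher (red) and lower (blue) in b2 by gene class and, for protein-coding genes, by number of exons, GC content and exonic length (number tested in parentheses), with dashed lines at 12.3% and 10.5%. The share called higher drops from 23.3% of single-exon genes to 9.10% of genes with over 20 exons. Mitochondrial genes and replication-dependent histone genes are left out of the classes by exons, GC content and length.

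Promoters were searched for 7 motifs, on both strands, from 250 bases before to 50 after the start, in the 11942 tested genes (63.7%) matched to RefSeq promoters (GRCm38.p6). GGAAGTG, the core bound by ETS factors, was in 17.6% of promoters of genes called higher, 12.1% of those called lower and 13.9% of all. For called genes beyond a log2 difference of 1 it was in 13.8% of those higher, near the share of all, and 6.92% of those lower. ACGTG, the core of hypoxia response and E-box elements, was in 26.6% and 26.5% against 24.9% of all, and in 10 of 20 glycolysis promoters. TTGCATCA, bound by ATF4 with its partners, was in 4 of 17 promoters of the amino acid response list and in 0.595% of all. AATCCAC, which can extend the site of FOXH1, was in 2.07% and 1.47% against 1.92% of all, and CTTTGAT, bound by TCF and LEF factors, in 2.65% and 2.46% against 2.62%. GCCATNTTG, bound by YY1, was in 10 of 67 promoters of nuclear oxidative phosphorylation genes against 4.06% of all, and TCACNCCAC, of sterol response elements, in 1 of 16 promoters of cholesterol genes against 1.11%. A match is a run of letters and not a bound site.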

How the data were processed

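RNA-seq libraries (stranded mRNA, single reads of 50 bases) of 8 EpiLC lines were analysed, 4 per column suffix. Reads had been trimmed (Trim Galore 0.6.4) and transcripts of GENCODE annotation (build mm10) quantified (Salmon 0.14.1) by the authors, who summed them to genes with tximport in R 4.0.2, per the study's methods and the submitters' processing notes; their own test was DESeq2 1.30.0. They deposited the estimated counts and, in a second table, the TPM, which divide by transcript length and library total. Such quantification divides reads that fit several transcripts by estimate, so values of near-identical genes depend on it. Columns were assigned to libraries by line name. Estimated counts were rounded to whole numbers (27.8% of values changed, by at most 0.5). edgeR 4.0.16 (R 4.3.3) with filterByExpr, TMM and the quasi-likelihood test fitted genotype and suffix, two-sided, with Benjamini-Hochberg adjustment over 18762 genes, and genes under 0.05 were called. CPM were computed on TMM-scaled library sizes; ± is the standard error of the log2 difference. Library shares were compared by an exact permutation test. DESeq2 1.42.0 and limma 3.58.1 served as alternatives. p-values measure the spread between lines, and intervals cover counting error only.

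Members and gene lists were chosen with earlier results of these data known. Named were the 15 genes with the largest difference in each direction (mean of at least 1 CPM, no overlap, same sign in both genotypes, no Gm or Rik symbols; pseudogenes apart, 5 each), up to 5 genes of each list by p, all called Nodal, BMP, Wnt and FGF genes, and genes the study names; no gene was called for the interaction by edgeR. Klf2, Pou3f1, Sall2, Gata3, Thy1, Slc7a11, Tm7sf2, Rpl5, Rpl7l1, Mt1, Mt2, Klf10, Arrdc4, Slc30a2, the clock genes, the mitochondrial genes beyond 5, their copies and the repeated family were named after their values were seen. Lists have counts and medians, no set test. Of 54281 gene identifiers 54107 matched GENCODE M21, used for classes, exons and sequences. Bounds use a floor of 3 counts and intervals are exact at 95%. Left-out lines, other normalizations, filters, tests and TPM were tried as alternatives, and the fits were tested on simulated data. Results of 2 listed genes are not reported here.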

Additional observations from a re-analysis of the deposited data

Results flagged for a closer look

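In groups of 4 libraries of 1 suffix, 1 library stood apart from the other 3 by more than Dixon's 95% critical value in 18 of the 458 groups examined (3.93%); chance alone gives about 1 in 20, or 5%. In b2, KO25 stood apart with Casc1 at 7.95 CPM, Wnt5b at 4.67 CPM and Tet3 at 64.6 CPM on the high side and Dll1 at 34.1 CPM and Zdbf2 at 129.9 CPM on the low side. WT12 stood apart with Lrp5 at 144 CPM and Gm37158 at 245 CPM on the high side and Dnmt3a at 626 CPM on the low side. WT34 had Gata3 at 3.799 CPM, above the others, and Furin at 13.9 CPM and Sall2 at 75.1 CPM, below them. KO15 had Sox3 at 69.3 CPM, above the others.

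In b1, WT17 had Slc25a18 at 0.141 CPM, above 3 libraries at 0, and Nupr1 at 46.0 CPM and Tcf7 at 101 CPM, below the others. KO1 had Gm2808 at 0.519 CPM, above 3 libraries at 0, and Sat1 at 17.2 CPM, below the others. KO9 had Otx2 at 97.1 CPM, above the others.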

How the results depend on the processing

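No paired analysis was possible because each line has its own number and occurs under 1 suffix, so no number is shared between the groups compared. DESeq2 size factors, the DESeq2 test, library size alone, no filter on low counts, at least 10 counts in every library, no genotype in the model and joined pseudogenes (chosen after seeing the data) each gave between 1964 and 2843 genes higher and between 1777 and 2456 lower in b2. Library size alone (1964 higher, 2451 lower) moved the median of all genes by -0.05. Fewer genes passed on TPM: limma on log2(TPM + 1) called 833 higher and 754 lower, with a pseudocount of 0.1 it called 856 and 768, and without a filter on low TPM 526 and 322. The 4 KO lines alone gave 722 higher and 292 lower and the 4 WT lines alone 207 and 63, from 4 libraries each. An absolute log2 difference above 1 left 690 and 303 and one above 1.5 left 353 and 118. Leaving out 1 line gave 1433 to 2437 genes higher and 1092 to 2225 lower, with the lowest without KO9, and fewer than the full count by over 1.5 times also without WT7 in both directions and without KO1 among lower genes. For the product of genotype and suffix, no filter on low counts gave 166 genes, DESeq2 3, limma on log2(TPM + 1) 1 and on log2(TPM + 0.1) 17, and leaving out 1 line 0 to 7; the cause was not tested.

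Of the 202 called genes named, 157 kept their call in all 8 fits that left out 1 line, and the DESeq2 test kept 197. Fewer were kept on TPM: limma on log2(TPM + 1) kept 108 of the 164 that had a value, and 81 of 202 without the filter. The 4 KO lines alone kept 110 of 201 and the 4 WT lines alone 42 of 202. As shares of TPM, the difference of b2 from b1 was 1.63 percentage points for mitochondrial genes, -1.48 for ribosomal protein genes and -1.69 for pseudogenes, each at an adjusted exact permutation p of 0.0476, -0.103 for nuclear oxidative phosphorylation genes (0.0714, overlapping groups) and 0.0910 for long noncoding RNA genes (0.657), against 1.38 for the latter on counts. Leaving out 1 line gave 0.672 to 0.941 points for mitochondrial genes, -0.967 to -0.760 for ribosomal protein genes, -0.120 to -0.0863 for nuclear oxidative phosphorylation genes, 1.09 to 1.95 for long noncoding RNA genes and -0.0977 to 0.0427 for pseudogenes, where the sign turned without KO9, KO15 or WT34.

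Genes whose log2 difference changed sign were not called, apart from Per2 and Rpl5. Per2 was -0.12 by limma on log2(TPM + 1), with or without the filter, and -0.17 with a pseudocount of 0.1. Rpl5 was -0.20 with pseudogenes joined. Pou5f1 was -0.0147 with library size alone, -0.0309 in the KO lines alone and -0.0031 to 0.0743 with 1 line left out. Otx2 was -0.0143 by limma on log2(TPM + 1), with or without the filter, -0.0175 with a pseudocount of 0.1 and -0.13 to 0.32 with 1 line left out. Tcf7l1 was -0.00035 and -0.00070 by limma with pseudocounts of 1 and 0.1 and -0.0090 to 0.13 with 1 line left out. Tet2 was -0.0104 by limma with a pseudocount of 0.1 and -0.0087 to 0.79 with 1 line left out. T was -0.0050 by limma without the filter and -0.0230 in the KO lines alone, and Lgr4 -0.0832 in the KO lines alone. Zfp42 was -0.0349 to 0.47 with 1 line left out. Tet1 was -0.15 without genotype in the model, -0.18 in the WT lines alone and -0.0340 to 0.24 with 1 line left out. Levels well below 1 CPM come from a handful of reads, and 4 libraries a group limit what small differences can pass.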

Other observations

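Called were 18.8% of unfolded protein response, 15.4% of heat shock, 20% of basement membrane and 6.67% of cadherin and junction genes. Over all genes tested 22.8% were called, 12.3% higher and 10.5% lower. Of 16 genes of the unfolded protein response 2 were higher and 1 lower in b2: the chaperone gene Hspa5 was 365 to 457 CPM in b1 and 453 to 598 CPM in b2 (0.37 ± 0.09, call lost without KO9, KO15 and WT7, 0.29 to 0.44), Dnajb9 was 0.60 ± 0.10 and Sdf2l1 -0.44 ± 0.11 (call lost without KO1, KO9, WT7 and WT17, -0.51 to -0.39). Of 13 heat shock genes 2 were higher, Hsph1 (0.42 ± 0.09, 178 to 204 CPM in b1 and 227 to 301 CPM in b2, call lost without KO9 at 0.38) and Dnaja1 (0.47 ± 0.07), and 0 lower. Of 15 basement membrane genes 3 were lower and 0 higher, the laminin gene Lamb2 (-0.50 ± 0.13), the perlecan gene Hspg2 (-0.21 ± 0.06) and the agrin gene Agrn (-0.24 ± 0.08). Calls were lost for Lamb2 without KO1, KO9, KO15 and WT7 (-0.60 to -0.40), for Hspg2 without KO1, KO9, KO15, WT7 and WT17 (-0.24 to -0.17) and for Agrn without KO1, KO9, KO15, WT7, WT12, WT17 and WT34 (-0.28 to -0.17). Of 15 cadherin and junction genes 1 was lower, Cldn4 (-0.47 ± 0.07), and 0 higher.

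Among 48 replication-dependent histone genes, whose transcripts lack a poly(A) tail and reach an mRNA library only in part, 1 was higher and 2 lower. These were 2.08% and 4.17% of the histone genes tested, against 12.3% and 10.5% over all genes. Long noncoding genes had 134 higher (8.63%) and 111 lower (7.15%) of 1552, and genes of the annotation class TEC 55 (6.32%) and 58 (6.67%) of 870. These shares too were below those over all genes. Ribosomal protein pseudogenes listed by name had 4 higher (3.96%) and 20 lower (19.8%) of 101, and predicted genes 420 (9.64%) and 249 (5.71%) of 4358.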
